A study of Homo sapiens with 4 samples.

Results

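The large (60S) subunit of the cytosolic ribosome is put together in the nucleolus by assembly factors that join the precursor rRNA for a time and leave again before the subunit translates. The genes described here are 47 such factors of 60671 gene identifiers in the tables. They were listed by function, as nucleolar and export factors of the large subunit without ribosomal proteins and DEAD-box helicases, and the rule used no measured value, although the list was drawn up with earlier results of these data known. Each symbol matched 1 Ensembl identifier, and all 47 genes had at least 1 TPM in each of the 4 libraries, so a filter at that level removed none of them. TPM is a length-corrected share of all transcripts of a library, so levels of different genes can be compared.

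Assembly runs through a series of particles. Early factors fold and modify the precursor rRNA in the nucleolus, the PeBoW complex and the Brix-domain proteins act on nucleolar particles, and an endonuclease complex then cleaves the internal spacer ITS2. AAA ATPases strip factors off, and an export adaptor takes the particle through the nuclear pore to the cytoplasm, where GTPases release the last factors. Growing cells, tumor cells among them, need many ribosomes, and many of these genes are known targets of c-Myc, which binds DNA at the E-box CACGTG together with its partner MAX.

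RNA was sequenced from the established human prostate carcinoma lines 22RV1 and PC3 to compare cells expressing an shRNA against the RNA helicase DDX52 (shDDX52) with cells expressing a control shRNA (shCON). Cells of all 4 conditions were transduced with a lentiviral pLKO.1 vector and selected with puromycin. 1 hairpin sequence against DDX52 was used, so effects of DDX52 loss and of that hairpin on other transcripts cannot be told apart. Each condition had 1 library, so none of the differences below has a replicate check and no test or p-value is given.

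DDX52 was 4.88 (shCON) and 1.2 TPM (shDDX52) in 22RV1, and 9.2 and 2.07 TPM in PC3, so that 24.6% and 22.5% of the control level was left. FOLH1 was 67.9 and 77.4 TPM in the 22RV1 libraries and below 1 TPM in both PC3 libraries, while HOXB13, another marker listed for 22RV1, was 89.9 and 105 TPM there and also 39.9 and 34.1 TPM in PC3. Of the markers listed for PC3, CD44 was 571 and 664 TPM, CAV1 162 and 130.2 TPM, AXL 32.6 and 79.3 TPM and VIM 12.6 and 66.7 TPM in PC3. In 22RV1, VIM was 8.08 and 5.57 TPM, CD44 17.1 and 7.01 TPM, and AXL and CAV1 were below 1 TPM. VIM and AXL thus were higher with shDDX52 in PC3, alongside the differences of the assembly factors given below, and their part in these was not tested. Genes annotated as rRNA held 1.21% and 0.0872% of the TPM in 22RV1 and 0.0923% and 3.13% in PC3, shCON first, and genes of the mitochondrial genome held between 8.10% and 13.0%. Total TPM was nearly equal in the libraries, from 984448 to 990860, so these classes shift all other values, and their part in the differences below was not tested beyond the rescaling given beside them. TPM does not keep sequencing depth, which is therefore unknown, so no interval can be set on a single TPM.

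RefSeq promoter windows of build GRCh38.p14, which run from 250 bases before to 50 bases after an annotated start, were found for 40 of the 47 genes. CACGTG, which reads the same on both strands, was present in a window of 14 of these 40 genes (35%), against 8.77% of 27305 genes of any type and 10.9% of 15843 protein-coding genes with such windows. In 10 of the 40 genes (25.0%) it lay in the 50 bases after the start, against 1.28% of protein-coding genes, and in 6 of the 40 (15.0%) in the 250 bases before it, against 9.73%. These shares describe letters in a window and not binding. The windows below are 30 bases long, or 27 for NOP2 where the table ends, and are written 5′ to 3′ on the coding strand with the E-box in capitals. They are shown for some of the factors that hold the motif and stood out in the values that follow, or that belong to a complex described there. Windows of other such factors, PELP1, NLE1, MDN1 and NOC3L among them, are not printed.
GNL2, minus strand, chr1:37595917-37595946: gtacgtcgtgcaCACGTGgtccggcgtggt
SURF6, minus strand, chr9:133336395-133336424: ggagcacaggaaCACGTGcgggaccggggt
NOP2, minus strand, chr12:6568242-6568268: aggtccggattgCACGTGgagggccgc
TEX10, minus strand, chr9:100352955-100352984: gcgggctgcgatCACGTGagcacagcaggg
MRTO4, plus strand, chr1:19251807-19251836: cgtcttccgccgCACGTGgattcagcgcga
GNL3, plus strand, chr3:52686026-52686055: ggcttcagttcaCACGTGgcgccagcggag
PES1, minus strand, chr22:30591880-30591909: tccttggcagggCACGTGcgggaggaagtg
The first base of the motif was base 4 after the start in GNL2, base 7 in GNL3, base 14 in PES1, base 15 in MRTO4 and base 36 in NOP2. It was base −30 relative to the start in TEX10 and base −224 in SURF6.

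The members spanned more than 2 orders of magnitude. In 22RV1 shCON they ranged from 3.23 TPM (NOC3L) to 582 TPM (NPM1), with a median of 47.2 TPM, and in PC3 shCON from 3.79 TPM (NOC3L) to 1236 TPM (NPM1), with a median of 44.9 TPM. NPM1 (nucleophosmin), an abundant nucleolar chaperone, held 14.2% of the summed TPM of the 47 genes in 22RV1 shCON and 29.2% in PC3 shCON. NOP53, which brings the RNA exosome to the particle, NOC2L, BOP1 and NOP16 followed in the mean over both controls, and NOC3L, MDN1, NOL9, MAK16 and RRP15 were the lowest. NPM1 has many processed pseudogenes, and the treatment of reads that match several of them is not given in the sources used here.

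**Figure D1:**
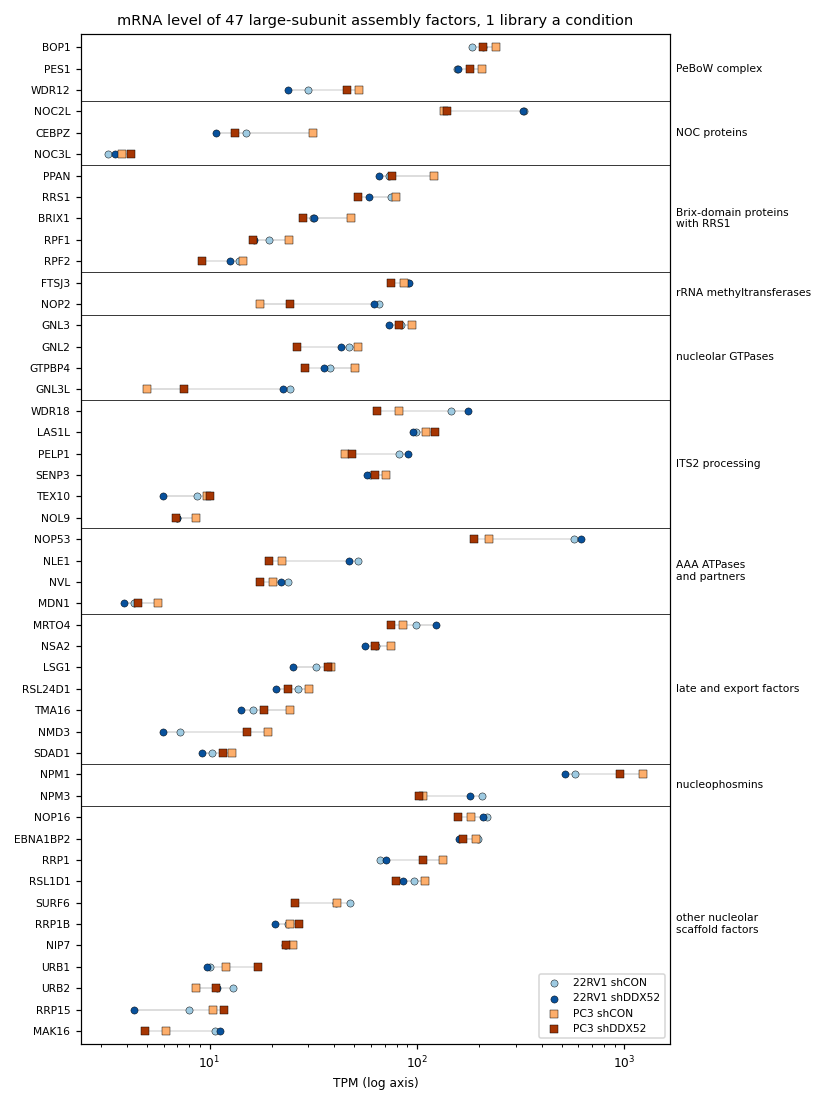
TPM of each of the 47 genes (rows, grouped by role) on a log axis, with 1 point for each library; circles are 22RV1 and squares PC3, light shCON and dark shDDX52. The dark squares of PPAN, BRIX1, GNL2, GTPBP4, CEBPZ and SURF6 lie well left of the light ones, and NOP53, NOC2L, NOP2 and GNL3L separate the cell lines more than the shRNA does.

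Between the control cells, the members were not at one common level. PC3 shCON and 22RV1 shCON come from separate tables, and their TPM are set side by side here as a description. On the scale log2((TPM + 1) / (TPM + 1)), with PC3 over 22RV1, 31 of the 47 genes were higher in PC3 and 16 were lower, where 52.3% of 15727 genes tested were lower, and the median of the members was 0.16 against −0.067 for all genes. The pattern was spread over single genes. At least 1.5-fold lower in PC3 were 9 members (19.1%, against 32.2% of all genes) and at least 1.5-fold higher were 7 (14.9%, against 29.3%). At 2-fold the counts were 5 lower, against 21.3% of all genes, and 4 higher, against 19.9%.

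GNL3L, a nucleolar GTPase, was 24.5 TPM in the 22RV1 control and 4.98 TPM in the PC3 control, a 4.93-fold difference. NOP2, the methyltransferase that sets a 5-methylcytosine in the large-subunit rRNA, was 65.8 and 17.5 TPM, a 3.75-fold difference. These were the members furthest toward 22RV1, followed by NOP53 (570.2 and 222 TPM), NOC2L (327 and 136 TPM) and NLE1 (52.3 and 22.5 TPM), a partner of the AAA ATPase MDN1. Toward PC3 lay NMD3, the adaptor that links the particle to the exportin XPO1, at 7.21 TPM in 22RV1 shCON and 19.2 TPM in PC3 shCON. NPM1 (582 and 1236 TPM), CEBPZ (15.0 and 31.5 TPM), RRP1 (66.1 and 134 TPM) and WDR12 (30.0 and 52.5 TPM) came next. The nucleophosmins thus lay on opposite sides, since NPM3 was 205 TPM in 22RV1 and 106 TPM in PC3.

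**Figure D2:**
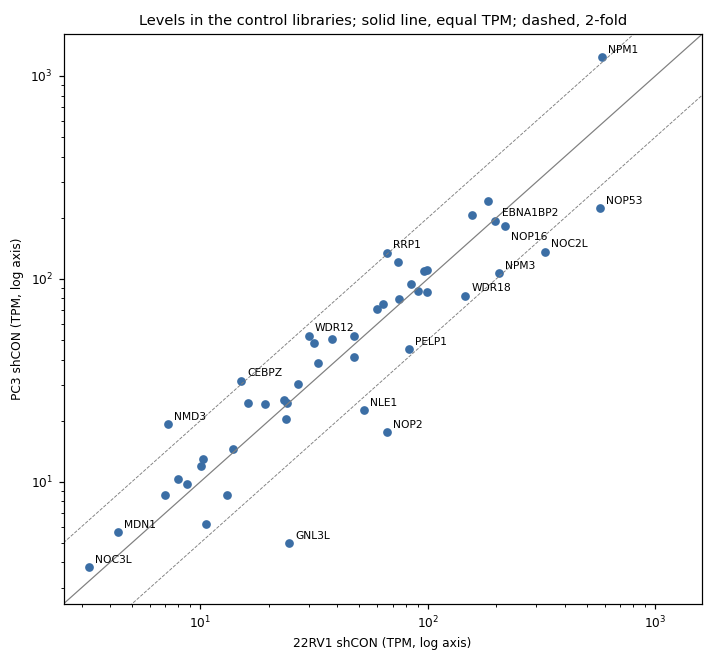
TPM in PC3 shCON against TPM in 22RV1 shCON for the 47 genes, both on log axes, 1 library each; the solid line marks equal TPM and the dashed lines 2-fold. GNL3L and NOP2 lie furthest below the line and NMD3 furthest above it.

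Within a cell line the shRNAs were compared by the log2 ratio, log2((TPM + 1) with shDDX52 / (TPM + 1) with shCON). Pairs of TPM are given with shCON first. A gene was tested where 1 or both of the libraries reached 1 TPM. In 22RV1 cells, most members were slightly lower with shDDX52. The median log2 ratio of the 47 genes was −0.14, with a range from −0.76 to 0.31, against a median of −0.076 over 14438 genes tested. Below 0 were 35 members (74.5%), where 58.8% of all genes were below 0. The summed TPM of the 47 genes was 4091 with shCON and 3969 with shDDX52 (97.0%). At least 1.5-fold lower was 1 member (2.13%, against 8.47% of all genes), and 0 were at least 1.5-fold higher, against 5.61%. At 2-fold both counts were 0, against 2.86% of all genes lower and 2.24% higher. Centred on the median of all genes, the median of the members was −0.060, with 29 of 47 below 0. Centred on protein-coding genes alike in transcript length and GC content, it was −0.018, with 25 of 47 members below 0. That centring also takes out the common shift of all genes, and the part of base composition was not tested.

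The member at that line was RRP15, a factor of early nucleolar particles, at 8.0 and 4.33 TPM, or 54.1% of the control (log2 ratio −0.76). The RRP15 gene (ENSG00000067533) is at chr1:218285287-218337983, plus strand (GENCODE 29, GRCh38). In PC3 cells the same gene was 10.4 and 11.7 TPM, so the lower level was seen in 22RV1 and not in PC3. TEX10, a subunit of the ITS2 processing complex, was the next lowest and did not reach 1.5-fold, at 8.71 and 5.97 TPM in 22RV1 and at 9.69 and 10.1 TPM in PC3. CEBPZ was 15.0 and 10.8 TPM in 22RV1, a log2 ratio of −0.45. LSG1, the cytoplasmic GTPase that releases NMD3, was 32.8 and 25.3 TPM, RRS1 74.8 and 58.5 TPM, and RSL24D1, which holds the place of the ribosomal protein RPL24, 26.8 and 20.8 TPM. The 3 log2 ratios lay between −0.36 and −0.35.

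At the other end in 22RV1, MRTO4, which holds the place of the stalk protein RPLP0 on the particle, was 99.6 and 124 TPM, a log2 ratio of 0.31. WDR18 was 146 and 176 TPM (0.27), BOP1 185 and 208 TPM (0.17), PELP1 82.3 and 90.4 TPM (0.13), NOP53 570.2 and 621 TPM (0.12) and RRP1 66.1 and 71.2 TPM (0.11). None of these 6 reached 1.5-fold. MRTO4, WDR18, BOP1, NOP53 and RRP1 were lower with shDDX52 in PC3, where their log2 ratios lay between −0.36 and −0.19.

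In PC3 cells, most members were also lower with shDDX52, 8 of them by at least 1.5-fold. The median log2 ratio was −0.20, with a range from −1.19 to 0.52, against −0.036 over 14262 genes tested. Below 0 were 36 of 47 members (76.6%), where 53.5% of all genes were below 0. The summed TPM was 4236 with shCON and 3488 with shDDX52 (82.4%), and without NPM1 it was 2999 and 2538. At least 1.5-fold lower were 8 members (17.0%, against 9.84% of all genes), 1 of them at least 2-fold lower (against 3.44%). At least 1.5-fold higher were 0, against 8.95%, and at least 2-fold higher 0, against 2.86%. The share of rRNA genes was higher in this shDDX52 library, and so was that of the mitochondrial genome (8.10% and 10.3%, shCON first). TPM were also rescaled over nuclear protein-coding genes, which leaves out all other genes. The median of the 12166 genes then tested was 0.087, against −0.033 for nuclear protein-coding genes on the deposited scale. On that scale 4 members were at least 1.5-fold lower and 3 higher (NOP2, URB1 and GNL3L), against 5.42% and 11.2% of these protein-coding genes. The median of the members was then −0.080 in PC3 and −0.12 in 22RV1, so the order of the cell lines turned. It lay 0.17 below the median of the protein-coding genes tested in PC3 and 0.063 below in 22RV1.

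CEBPZ, the human counterpart of the yeast nucleolar factor Noc1, was 31.5 and 13.2 TPM, or 41.96% of the control (log2 ratio −1.19). It was the member furthest down in PC3 and among the lowest in 22RV1. GNL2, a GTPase needed for release of the particle from the nucleolus, was 52.2 and 26.5 TPM, 50.8% of the control. GTPBP4, a nucleolar GTPase of the same superfamily, was 50.2 and 28.8 TPM, or 57.3%. BRIX1, for which the Brix domain is named, was 48.4 and 28.3 TPM, or 58.5%. In 22RV1 cells GNL2, GTPBP4 and BRIX1 were at 90.8%, 94.4% and 101% of the control, so their lower levels were seen in PC3 and not to that extent in 22RV1. These 4 genes were past 1.5-fold in PC3 under the other pseudocount, scaling and each centring as well.

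PPAN was 121 and 75.6 TPM in PC3, SURF6, a nucleic acid binding protein of the nucleolus, 41.0 and 25.8 TPM, RPF2 14.5 and 9.2 TPM, and RRS1 79.7 and 52.3 TPM. They were at 62.5%, 62.9%, 63.4% and 65.6% of the control and passed the 1.5-fold line on the deposited scale, but not after rescaling over nuclear protein-coding genes. Centred on length and GC content, SURF6 (−0.89) was past the line, and PPAN (−0.55), RRS1 (−0.52) and RPF2 (−0.31) were not. RPF1 lay just outside the line, at 24.2 and 16.2 TPM and a log2 ratio of −0.55. Of the 8 genes past the line, GNL2 and SURF6 carry the E-box windows shown above. CEBPZ, GTPBP4, BRIX1 and PPAN have windows without it, and RPF2 and RRS1 had no window. The 14 members with CACGTG had a median log2 ratio of −0.20 in PC3 and the 26 without it −0.22, and in 22RV1 the medians were −0.14 and −0.091.

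The positions of the 4 lowest genes in GENCODE 29 on GRCh38 are given because each overlaps at least 1 gene on the opposite strand. CEBPZ (ENSG00000115816) is at chr2:37201612-37231713, minus strand, and overlaps CEBPZOS and NDUFAF7. GNL2 (ENSG00000134697) is at chr1:37566816-37595935, minus strand, and overlaps DNALI1. GTPBP4 (ENSG00000107937) is at chr10:988019-1019936, plus strand, and overlaps IDI2, and BRIX1 (ENSG00000113460) is at chr5:34915376-34925996, plus strand, and overlaps RAD1. The labels do not say that strand was kept in counting, so how reads from overlapping genes were assigned is unknown. In PC3, CEBPZOS was 26.7 and 18.6 TPM, NDUFAF7 10.1 and 9.02 TPM and RAD1 16.8 and 17.2 TPM. DNALI1 was 0.01 and 0 TPM there, and IDI2 was 0 TPM in both libraries. The part of overlapping genes in the values was not tested. PPAN shares its strand with the readthrough gene PPAN-P2RY11 (27.6 and 24.1 TPM in PC3) and with P2RY11 (10.7 and 3.97 TPM), so the value of each depends on how shared reads were split. Over the 16 members that overlap no annotated gene, the median log2 ratio in PC3 was −0.32.

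The members highest with shDDX52 in PC3 were GNL3L, from 4.98 to 7.57 TPM (log2 ratio 0.52), URB1, from 12 to 17.2 TPM (0.49), NOP2, from 17.5 to 24.5 TPM (0.46), and URB2, from 8.57 to 10.7 TPM (0.29). With the pseudocount of 1 none of them reached 1.5-fold, although the TPM of GNL3L alone are 152% of the control, and its log2 ratio with a pseudocount of 0.1 was 0.59. GNL3L and NOP2 were also the members lowest in PC3 control cells relative to 22RV1 control cells. That control library enters both differences, so the 2 are not independent. URB1 and URB2, large scaffold proteins of the earliest particles, were 10.1 and 9.70 TPM and 13.0 and 10.9 TPM in 22RV1. NOP2 shares its strand with the identifier AC006064.6, which overlaps it and was 31.5 and 26.1 TPM in PC3, so a different split of shared reads would change the value of NOP2.

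**Figure D3:**
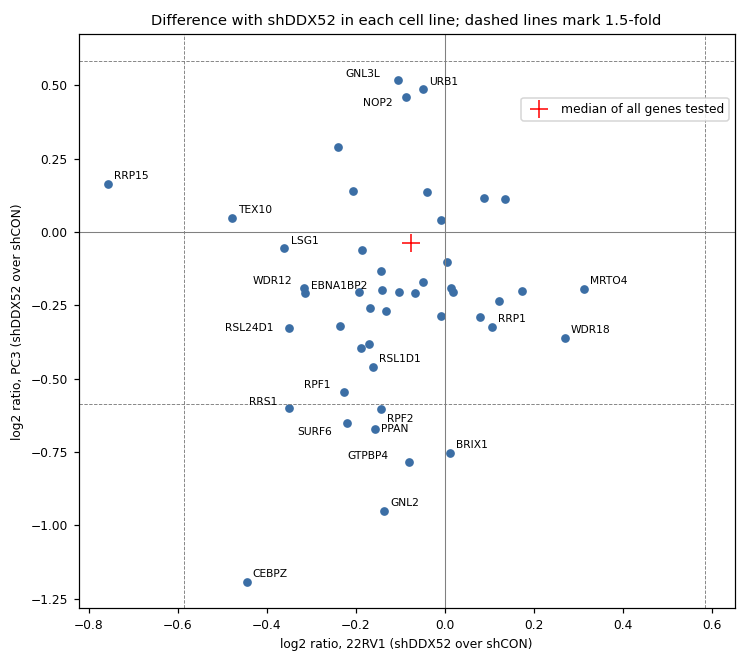
Log2 ratio (shDDX52 over shCON) in PC3 against that in 22RV1 for the 47 genes, with 1.5-fold lines dashed and the median of all genes tested as a red cross. CEBPZ, GNL2, GTPBP4 and BRIX1 lie lowest on the PC3 axis, RRP15 lies alone on the left, and GNL3L, URB1 and NOP2 lie at the top.

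The cell lines were set side by side gene by gene. Below 0 in both were 26 of the 47 members (55.3%), where 32.5% of 12175 genes tested in both lines were below 0 in both. Above 0 in both were 2 (PELP1 and NOC3L), 9 were below 0 in 22RV1 and above 0 in PC3, and 10 the reverse. At least 1.5-fold lower in both were 0, but only 1 member passed that line in 22RV1 and 8 in PC3, so this count says little about overlap. The shares of all genes above 0 in both, of opposite sign, or past the line in both are not given here. Across the 47 genes the log2 ratios of the cell lines had a Pearson r of 0.075 and a Spearman rho of 0.090. These describe genes measured in the same 4 libraries, which are not independent replicates.

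By role, some groups lay together and others parted, and these were not the same groups in the 2 cell lines. In 22RV1 the 4 nucleolar GTPases lay between −0.19 and −0.081 and the 2 nucleophosmins between −0.19 and −0.17, on the deposited scale. The Brix-domain proteins BRIX1, RPF1, RPF2 and PPAN with RRS1, which with RPF2 brings the 5S ribonucleoprotein to the particle, were all 5 lower in PC3, 4 of them at least 1.5-fold, against 9.84% of all genes, with a median log2 ratio of −0.60 and a range from −0.75 to −0.55. Centred on length and GC content all 5 were still below 0, from −0.63 (BRIX1) to −0.26 (RPF1), and BRIX1 alone was past 1.5-fold. Their summed TPM was 288 with shCON and 182 with shDDX52, 63.1% of the control. In 22RV1 their median was −0.16, with 4 of 5 below 0.

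The nucleolar GTPases split in PC3. GNL2 and GTPBP4 were at least 1.5-fold lower, GNL3 (nucleostemin) was 94.5 and 81.9 TPM, and GNL3L, its closest relative among them, was higher. In 22RV1 GNL3 was 83.9 and 73.3 TPM and GNL3L 24.5 and 22.7 TPM, and the median of the 4 genes was −0.12, which turned to 0.074 after centring on length and GC content. A similar split was seen for the NOC proteins, where CEBPZ was lower and its partners were level: NOC2L was 136 and 139.5 TPM in PC3 and 327 and 325 TPM in 22RV1, and NOC3L was 3.79 and 4.19 TPM in PC3 and 3.23 and 3.50 TPM in 22RV1.

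The PeBoW complex, which acts in maturation of the large-subunit rRNA, was lower in PC3 in each subunit. PES1 was 206 and 180 TPM, BOP1 241 and 209 TPM and WDR12 52.5 and 45.8 TPM, and the log2 ratios lay between −0.20 and −0.19. Centred on length and GC content they spread, to −0.29 for WDR12, −0.20 for PES1 and −0.040 for BOP1. In 22RV1 the subunits parted, with PES1 at 156 and 157 TPM, BOP1 at 185 and 208 TPM and WDR12 at 30.0 and 23.9 TPM.

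The ITS2 processing group stayed near its control level in PC3, with a median of −0.061 and 3 of 6 members below 0. LAS1L, the endonuclease that cuts ITS2, was 111 and 122 TPM in PC3 and 98.9 and 96.2 TPM in 22RV1. NOL9, the kinase that acts with it, was 8.59 and 6.87 TPM in PC3 and 7.0 and 6.96 TPM in 22RV1. PELP1 (44.9 and 48.7 TPM in PC3) and SENP3, the SUMO protease of this complex (70.8 and 62.7 TPM), differed by less than 1.2-fold, while WDR18 was 82.3 and 63.9 TPM in PC3 against 146 and 176 TPM in 22RV1. The median of this group turned to 0.063 in PC3 when TPM was rescaled over nuclear protein-coding genes.

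On the deposited scale, the later factors were lower in PC3 with no large single difference. Centred on length and GC content, MDN1 was −0.56. Of these factors LSG1 alone changed sign under an alternative, to 0.072 when TPM was rescaled over nuclear protein-coding genes. MDN1, NVL, NLE1 and NOP53, the AAA ATPases and their partners, had log2 ratios from −0.27 to −0.20, and the 7 late and export factors from −0.39 (TMA16) to −0.055 (LSG1). NMD3 was 19.2 and 15.2 TPM in PC3 and 7.21 and 5.97 TPM in 22RV1. In 22RV1, 6 of the 7 late and export factors were below 0, with MRTO4 above it. Of the nucleophosmins, NPM1 was 1236 and 950.0 TPM in PC3 and 582 and 518 TPM in 22RV1, and NPM3 106 and 102 TPM in PC3 and 205 and 181 TPM in 22RV1. The paralogs RRP1 and RRP1B lay on opposite sides of 0 in each cell line, though in 22RV1 RRP1 turned from 0.11 to −0.0085 when centred on length and GC content, the side of RRP1B. RRP1 was 134 and 107 TPM in PC3, and RRP1B, which was 24.6 and 27.2 TPM there, was 23.95 and 20.6 TPM in 22RV1. The rRNA methyltransferases also parted in PC3, where FTSJ3 was 86.6 and 75.1 TPM and NOP2 was higher with shDDX52.

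**Figure D4:**
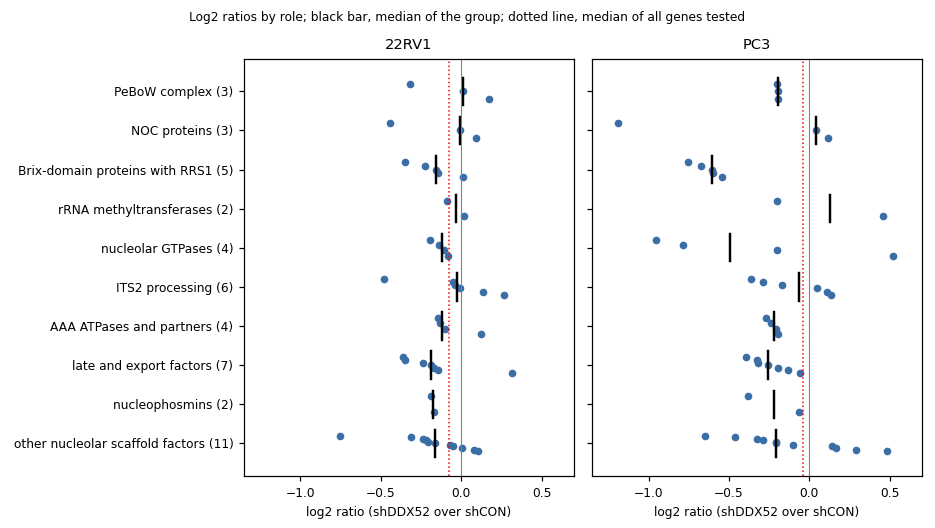
Log2 ratios of the 47 genes in 22RV1 (left) and PC3 (right) by role, with the number of genes in brackets, 1 point for each gene, a black bar for the median of the group and a dotted red line for the median of all genes tested. The Brix-domain group lies to the left as a block in PC3, while the GTPases and the NOC proteins are spread.

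GC content moved with the log2 ratio in 22RV1. Across the 47 genes, Spearman's rho between the log2 ratio and the GC content of the longest coding transcript was 0.51 in 22RV1 and 0.18 in PC3. Over all protein-coding genes tested it was 0.35 (11853 genes) and −0.027 (11845 genes). Over those with at least 10 TPM it was 0.52 (6693 genes) and 0.023 (7042 genes). In 22RV1 the median was −0.17 over the 23 members of lowest GC content, with 19 below 0, and −0.048 over the 24 of highest GC content, with 16 below 0. RRP15, with 35.2% GC, was among the members of lowest GC content, and WDR18, with 65.9%, was the highest. Transcript length moved with the log2 ratio in PC3, with a rho of 0.30 over the members and 0.28 over protein-coding genes with at least 10 TPM. These rho describe genes of the same libraries, and the part of base composition or length in single values was not tested beyond the centring given above.

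**Figure D5:**
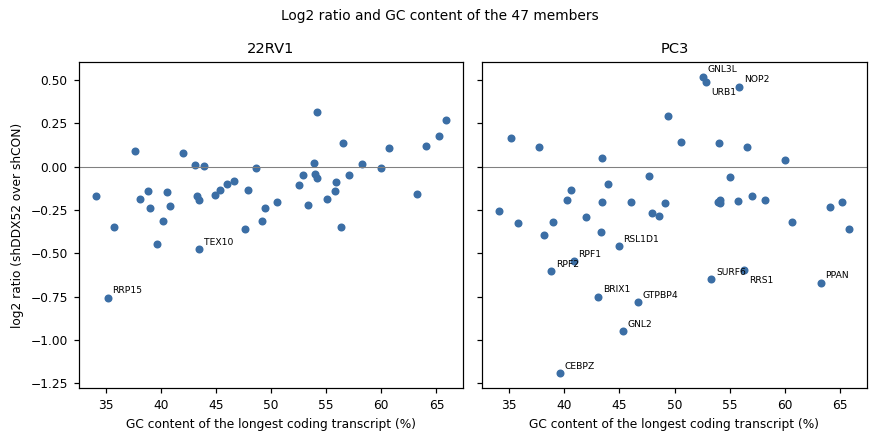
Log2 ratio (shDDX52 over shCON) against the GC content of the longest coding transcript for the 47 genes in 22RV1 (left) and PC3 (right). The points tend to climb with GC content in 22RV1, with scatter, and show less of this in PC3. In 22RV1, RRP15 (35.2% GC) lies furthest down and MRTO4 (54.1% GC) furthest up.

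A list of 28 other large-subunit assembly and export genes, with no member in common, lay in the same range. Their median log2 ratio was −0.16 in 22RV1, with 23 below 0 (58.8% of all genes) and 1 at least 1.5-fold lower (8.47% of all genes). In PC3 it was −0.22, with 23 below 0 (53.5% of all genes) and 6 at least 1.5-fold lower (9.84% of all genes). In 22RV1 the lowest were RBM28 (37.1 and 23.8 TPM), HEATR3 (13.5 and 9.23 TPM) and PWP1 (42.1 and 30.1 TPM), and the highest EIF6, which keeps the subunits apart until the large one is mature (266 and 313 TPM), GRWD1 (50.4 and 58.0 TPM) and AAMP (207 and 230 TPM). In PC3 the lowest were NOL8 (9.40 and 4.46 TPM), BCCIP (81.0 and 51.3 TPM) and NOL12 (41.3 and 26.1 TPM), and the highest AAMP (186 and 222 TPM), PA2G4 (310 and 361 TPM) and AFG2A (1.42 and 1.77 TPM). The low level of AFG2A leaves its ratio uncertain.

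The study asked about c-Myc targets, and 10 of the 47 members were recalled from memory as part of the hallmark list of Myc targets V2 (NOP2, NOP16, PES1, BOP1, PPAN, NIP7, GNL3, LAS1L, MRTO4 and NPM1), so this membership can differ from the published list. Their median log2 ratio was −0.053 in 22RV1, with 6 of 10 below 0, and −0.20 in PC3, with 8 of 10 below 0 and 1 at least 1.5-fold lower. The other 37 members had medians of −0.14 and −0.24, with 29 and 28 below 0, and 1 and 7 at least 1.5-fold lower. Over all genes tested, 58.8% in 22RV1 and 53.5% in PC3 were below 0, and 8.47% and 9.84% were at least 1.5-fold lower. NOP16 was 217 and 207 TPM in 22RV1 and 182 and 157 TPM in PC3, and NIP7 was 23.3 TPM in both 22RV1 libraries and 25.3 and 23.5 TPM in PC3.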

How the data were processed

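Total RNA of the 4 conditions was sequenced with 1 library each, and the authors deposited TPM values for 60671 Ensembl identifiers, per the file headers. The reads were mapped on an online platform. The submitters' processing notes name CASAVA, HISAT2 and the build hg19. The quantification program, annotation and filters are not given in the sources used here, and depth is unknown. From the TPM, log2 ratios with a pseudocount of 1 were computed where 1 or both libraries compared reached 1 TPM. There was no test. GENCODE 29 (GRCh38) gave gene types, overlaps, transcript length and GC content, and RefSeq (GRCh38.p14) the promoter windows. The deposited values carry no coordinates. Symbols were matched through a table of gene names, and AFG2A and AFG2B through older symbols.

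Named genes were DDX52, the 6 lowest and 6 highest members by log2 ratio in each cell line, members past 1.5-fold, the 5 highest and 5 lowest in control TPM and in control difference at each end, the PeBoW and ITS2 groups, 3 paralog pairs, and the 3 lowest and 3 highest of the other pathway genes. Other members are named where their role group is described. The members and lists were chosen with earlier results of these data known. The calculation was tried on simulated data with little added noise, with 200 genes changed 2-fold, of which 200 were recovered past 1.5-fold. That trial used a pseudocount of 0.1, so it does not show recovery with the pseudocount of 1 used above. Scripts ran under Python 3.11.15 with scipy 1.17.1, pandas 2.3.3, numpy 2.4.6 and matplotlib 3.10.9.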

Additional observations from a re-analysis of the deposited data

Results flagged for a closer look

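With shDDX52, 9 of the named members differed in direction between the cell lines, with a log2 ratio of at least 0.1 in size in each. Named members include the 6 lowest and 6 highest by these ratios in each cell line, so such cases were selected for. The share of all genes that meet the same rule is not given here, so the count cannot be set against it. The log2 ratio was 0.17 in 22RV1 and −0.20 in PC3 for BOP1, 0.27 and −0.36 for WDR18, 0.11 and −0.32 for RRP1, 0.31 and −0.19 for MRTO4, and 0.12 and −0.24 for NOP53. It was −0.11 in 22RV1 and 0.52 in PC3 for GNL3L, −0.21 and 0.14 for RRP1B, −0.76 and 0.17 for RRP15, and −0.24 and 0.29 for URB2. Centred on genes alike in length and GC content, RRP1 (−0.0085) and GNL3L (0.029) changed sign in 22RV1 and then lay on the same side as in PC3. BOP1, WDR18, NOP53, RRP1B and URB2 stayed on opposite sides, but fell under 0.1 in size in 22RV1, in PC3 or in both. MRTO4 and RRP15 kept opposite sides with at least 0.1 in each cell line. With 1 library a condition, none of these differences between the cell lines was tested.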

How the results depend on the processing

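The 107 values were recomputed under 438 alternatives, and a value counted as moved when it shifted by 0.1 or more on the log2 scale, or a count by more than 1.5 times. The cause of these shifts was not tested.

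Centring on genes alike in length and GC content turned 2 medians in 22RV1 by at least 0.1, those of the GTPases (0.074) and of the AAA ATPases and partners (0.053). The medians of the ITS2 group (−0.024 to 0.055) and of PeBoW (0.013 to −0.042) also changed sign there, by less than 0.1. It moved the medians in 22RV1 of all members (−0.018), NOC proteins (−0.12), late and export factors (−0.038), nucleophosmins (−0.036) and other scaffold factors (−0.051), and in PC3 of late and export factors (−0.15), nucleophosmins (−0.034) and other scaffold factors (−0.030). Rescaling over nuclear protein-coding genes moved, in PC3, the medians of all members (−0.080), PeBoW (−0.065), NOC proteins (0.17), the Brix-domain group (−0.49), methyltransferases (0.26), GTPases (−0.37), the ITS2 group (0.063), AAA ATPases (−0.094), late and export factors (−0.13), nucleophosmins (−0.092) and other scaffold factors (−0.080), the log2 ratio of the summed TPM (−0.15), and the counts at least 1.5-fold lower (4) and higher (3).

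Without members that overlap another gene the PC3 median was −0.32. A pseudocount of 0.1 put 1 member at least 1.5-fold higher in PC3, and a filter of 10 TPM left 0 at least 1.5-fold lower in 22RV1. Of the values of single members, 222 stayed, 82 moved and 0 changed sign after passing 1.5-fold, a line that only 1 member passed in 22RV1 and 8 in PC3. Smaller ratios did change sign, and a change of sign by less than 0.1 counted as stayed. In 22RV1, GNL2, GNL3, GTPBP4, MDN1 and NPM1, among others, did not keep their sign under every alternative. In PC3, NIP7, PELP1, LSG1 and NPM3 did not. Centring on the median of all genes subtracts a constant in each cell line, −0.076 in 22RV1 and −0.036 in PC3. It therefore could not move a log2 ratio by 0.1. With it, the members below 0 in 22RV1 went from 35 to 29, and those at least 1.5-fold lower in PC3 from 8 to 6. No paired analysis was possible because there were no replicates, and for the same reason none could be left out.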

Other observations

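In GENCODE 29, 4 members hold 10 snoRNA genes inside them on the same strand. GNL3 holds 6 (SNORD19, SNORD19B and SNORD69 among them), PPAN holds 2 (SNORD105 and SNORD105B), URB1 holds SNORA80A and NOP53 holds SNORD23. snoRNAs guide modification of rRNA and are released from introns. The log2 ratios of these 4 hosts did not share a direction in PC3, where URB1 was 0.49, GNL3 −0.20, NOP53 −0.24 and PPAN −0.67.

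Other promoter letters were searched in the same windows on both strands. TATAAA was present in 2 of 40 members (RPF1 and NOP53, 5.0%), against 12.4% of protein-coding genes. CAAGATGGC, letters that the factor YY1 is known to bind, was present in 3 of 40 (BRIX1, WDR18 and NOP53, 7.5%), against 2.30% of protein-coding genes.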
